A study of Zea mays with 6 samples.

Results

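The genes described here are 220 maize genes that lie next to one another in gene ID order, from Zm00001eb078500 to Zm00001eb082500, out of 23150 genes tested in the same libraries. A gene was tested where 3 or more of the 6 libraries had a normalized read count of 10 or more. Of 368 gene IDs listed in this interval, 220 met that filter, 82 were above 0 in at least 1 library but below the filter, and 66 were at 0 in all libraries. The limits of the interval were set because earlier work on the same values had found genes that differ between mop1 and WT crowded there. All differences between the genotypes inside it are therefore given as a description, and none is offered as evidence that the interval stands apart.

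RNA came from immature anthers with meiocytes in meiosis I, from plants homozygous for mop1 (3 libraries) and from siblings homozygous for the wild-type allele (WT, 3 libraries). Both genotypes were in a Mo17/B73 hybrid background, that is, a cross of the inbred lines Mo17 and B73. The labels do not name the mutant allele or say whether the replicates were separate plants, so errors measure the spread between these libraries, which may be technical. They name meiocytes as the cell type but whole immature anthers as the source of RNA. In such bulk tissue, fewer cells of a type and less RNA per cell cannot be told apart.

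MOP1 copies RNA into double-stranded RNA, from which cells cut the small RNAs that guide DNA methylation to transposons, often close to genes. As background, maize gene IDs of this kind are numbered along the chromosomes, so neighbours in ID order are usually neighbours on a chromosome. Plants chosen as homozygous for one allele tend to share the chromosome segment around it, and a segment from another haplotype can carry different alleles of many genes at once. Reads from a haplotype unlike the reference can also align less well. The table gives IDs without names, positions or functions, so where the interval lies relative to mop1, what its genes encode and which haplotype each library carries were not analysed here. A change in transcript level, a different allele and poorer alignment of reads cannot be told apart in these values.

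Between 22635163 and 26531475 whole reads per library were recovered from the table. The library labelled mop1 replicate 3 stood apart from the other 5: at 540 of the 23150 tested genes (2.33%) its value was more than 4-fold lower than in each of the others, against 3 to 56 genes for any other library. Results that rest on it are given with and without it. Marker genes for meiocytes or anther wall were not looked up, because the IDs carry no names.

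The interval's genes were detected about as often as the rest of the table, with a somewhat lower median level. Among the listed IDs, 59.8% were tested in the interval and 58.2% in the rest. The share at 0 in all libraries was 17.9% in the interval and 18.1% in the rest. The median over the members of the mean normalized count was 272, against 393 over all other tested genes, with a range over the members of 6.34 to 19727. A mean of at least 1000 was reached by 48 members (21.8%), against 24.3% of all other tested genes. These counts are not corrected for gene length, so they do not rank genes by transcript abundance.

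The difference between mop1 and WT was next counted by 3 rules: a limma test, a fold of at least 2, and groups that were apart. Groups are called apart when every mop1 library lay above, or every one below, every WT library. They were apart at 72 of the 220 members (32.7%), where 17.7% of all tested genes had groups apart. Of these, 46 were lower in mop1 (background 10.2%) and 26 higher (background 7.5%). A fitted fold of 2 or more was found for 40 members (18.2%, background 9.29%), 29 of them lower (background 5.39%) and 11 higher in mop1 (background 3.9%). A fold of 4 or more was found for 14 members (6.36%, background 2.13%). Members that were apart and differed by 2-fold or more numbered 25 (11.4%, background 4.06%), 19 lower (background 2.43%) and 6 higher (background 1.63%). After quantile normalization that last count was 22, with 14 lower and 8 higher, and the share over all tested genes is not given for that setting. Because the interval was chosen on this contrast, nothing is read from the distance between these shares and their background.

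Across the interval as a whole the typical change was small. The median log2 fold change, mop1 minus WT, was -0.09 over the members and -0.02 over all other tested genes. The median size of the change, without its sign, was 0.37 on the log2 scale over the members and 0.26 over all other tested genes. The fitted change was negative at 123 members (55.9%, against 52.3% of all other tested genes) and positive at 97. The members with groups apart were thus mixed among many that showed little difference, and 47 of the 72 had a fitted change under 2-fold.

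The limma test passed few of them. At an adjusted p of 0.05 over all 23150 genes, 2 of the 220 members passed (background 0.0216%), both lower in mop1: Zm00001eb080280 and Zm00001eb080660. Without mop1 replicate 3, 6 members passed (background 0.898%), 5 lower and 1 higher, with both of these among them. Without mop1 replicate 2 (background 0.00432%), or without WT replicate 1, 2 or 3 (background 0% each), limma passed 0 members. In these fits 30 to 37 members had an unadjusted limma p under 0.05, as did 1379 to 1622 of all 23150 tested genes. Without mop1 replicate 1 it passed 4 (background 0.216%). edgeR's quasi-likelihood test on the recovered reads passed 0 members (background 0.013%), and DESeq2 passed 16 (background 1.91%). By edgeR, 47 members and 2375 of all 23150 tested genes had an unadjusted p under 0.05. Nothing is read from these counts, since the interval was chosen on this contrast. With the replicate number as a block, limma passed 1 member (background 0.0216%), Zm00001eb080660.

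**Figure D1:**
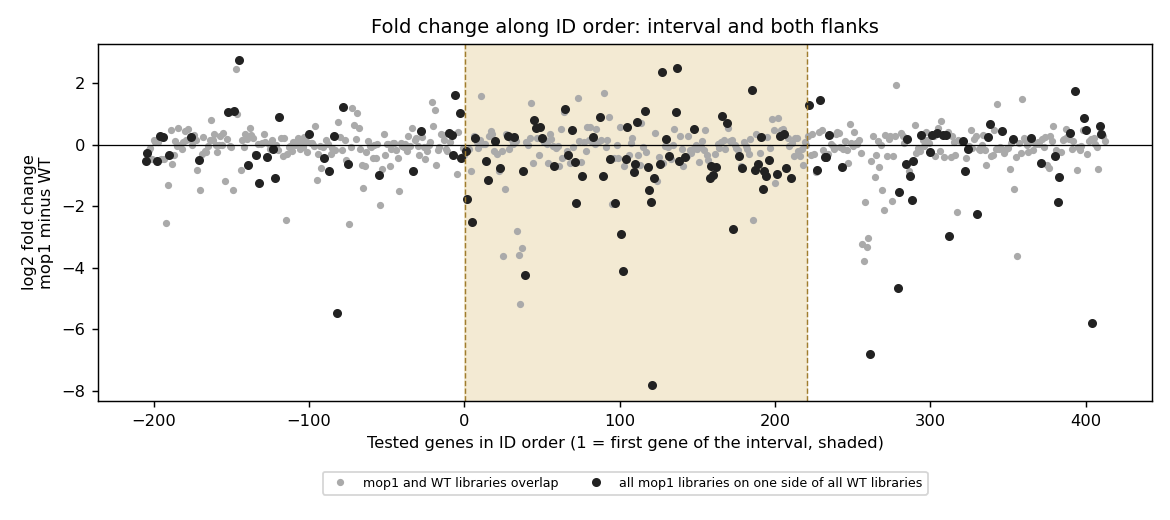
Fitted log2 fold change, mop1 minus WT (vertical axis), of each tested gene in ID order (horizontal axis), with the 220 members shaded and 206 tested genes before and 192 after them. Black points have all mop1 libraries on one side of all WT libraries, grey points do not. The members reach from -7.80 to 2.50, and most lie near 0.

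Along ID order the share of members that differed varied from bin to bin. In 8 bins of 500 ID numbers, the share of members with groups apart ranged from 21.9% in bin 2 to 50% in bin 5, where 17 of 34 members were apart. Bins 4 and 5, from Zm00001eb080000 to Zm00001eb080999, were put together after their values were seen. They held 54 members, of which 24 were apart (44.4%), 17 lower and 7 higher in mop1. The other 6 bins held 166 members with 48 apart (28.9%). Members that were both apart and at least 2-fold different numbered 12 in bins 4 and 5 (22.2%) and 13 in the other bins (7.83%). Of these, 4 of the 12 and 1 of the 13 reached 10 normalized counts in every library of one genotype and in none of the other. With such genes left out, a count added after seeing the data, bin 5 had groups apart at 14 of 31 members (45.2%), and 5 of the 31 were also at least 2-fold different (16.1%). The median log2 fold change was -0.35 in bins 4 and 5, against -0.03 in the other bins.

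Without mop1 replicate 3, groups are apart more often by construction, at 114 members (51.8%) and 40.4% of all tested genes. The shares were then 70.0% in bin 4 and 67.6% in bin 5. The interval's limits did not coincide with a clean edge. In the flanks of 4000 ID numbers, 16.5% of 206 tested genes before the interval and 21.9% of 192 after it had groups apart. In the second bin after the interval, from Zm00001eb083000 to Zm00001eb083499, 10 of 20 tested genes were at least 2-fold different (background 9.29%). All 10 were lower in mop1 (background 5.39%), and 1 of the 20 genes had groups apart. Without mop1 replicate 3, 6 of the 20 were at least 2-fold different (background 10.6%), all lower (background 4.22%). The third bin after it, from Zm00001eb083500 to Zm00001eb083999, reached 38.1% apart, and 66.7% without mop1 replicate 3.

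**Figure D2:**
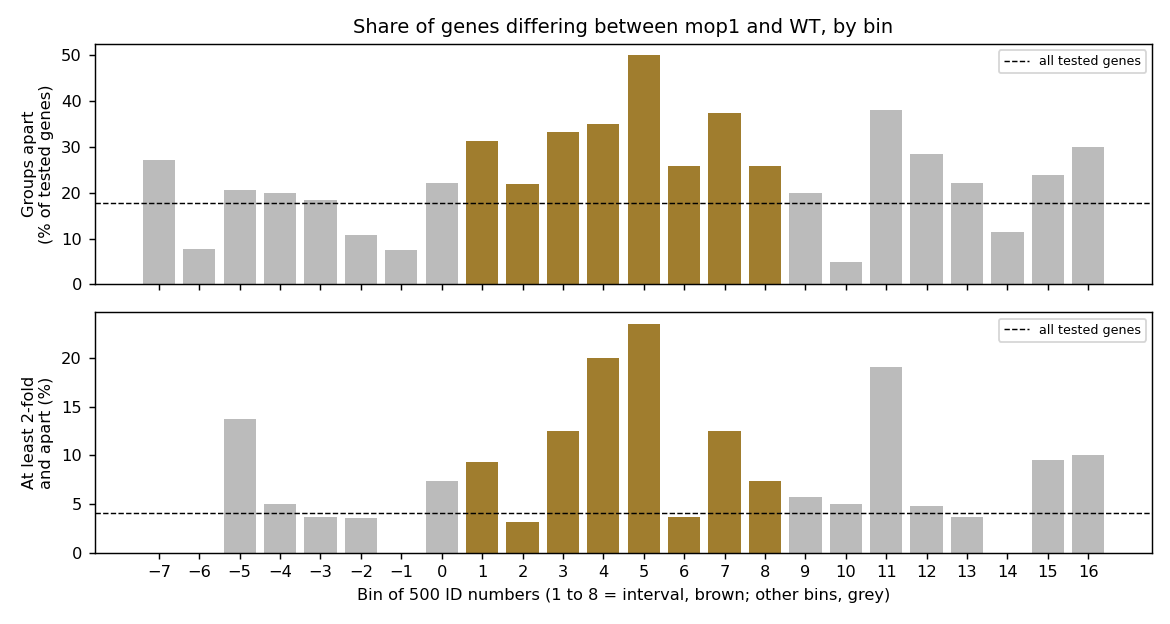
Percentage of tested genes with groups apart (top) and with groups apart and at least 2-fold different (bottom) in bins of 500 ID numbers. Bins 1 to 8 (brown) are the interval, the others (grey) its flanks, and the dashed lines mark 17.7% and 4.06% of all tested genes. Bin 5 is the tallest bar in both panels, at 50% and 23.5%.

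The member with the widest separation was Zm00001eb080660, which had no read in any mop1 library. Its normalized counts were 0, 0 and 0 in mop1 replicates 1 to 3, against 180, 366 and 166 in WT replicates 1 to 3, where 863 reads were recovered. With 3 reads over the mop1 libraries taken as the limit of detection, the gene was at least 313-fold lower there. No other listed ID of the interval reached 10 normalized counts in each library of one genotype with no more than 1 read per library in the other. Its adjusted p by limma was 0.0074, and it kept the call in 12 of 18 alternatives.

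Nearby, 3 members of bin 4 were also low in every mop1 library. Zm00001eb080280 had 257, 306 and 283 normalized counts in mop1 replicates 1 to 3, against 1118, 1120.3 and 912 in WT replicates 1 to 3. Its mean was 282 ± 24.6 in mop1 and 1050.2 ± 120 in WT (SD, n = 3 each), and the log2 fold change was -1.89 (standard error 0.16). Its adjusted p by limma was 0.038, and it kept the call in 10 of 18 alternatives. The mop1 libraries lay close together and far below the WT libraries.

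Zm00001eb080370 had 98.6, 104 and 188 normalized counts in the mop1 libraries, against 1043.6, 831 and 934 in the WT libraries. Zm00001eb080380, its next neighbour among the members, had 6.21, 3.87 and 6.55 in the mop1 libraries, against 87.2, 117 and 133 in the WT libraries. For both genes the highest mop1 library was far below the lowest WT library. Their log2 fold changes were -2.89 (standard error 0.28) for Zm00001eb080370 and -4.12 (standard error 0.38) for Zm00001eb080380. Both had an adjusted p just above the threshold by limma, 0.054 for Zm00001eb080370 and 0.051 for Zm00001eb080380, and passed in 8 and 9 of 18 alternatives.

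In bin 5 a run of 5 consecutive members, from Zm00001eb080610 to Zm00001eb080670, had every mop1 library below every WT library. Over the whole table, 2 runs of this length with all genes on the same side were found, this one included. With genes on either side allowed, 4 were found. The interval was chosen on this contrast, and Zm00001eb080660 passed the filter in WT libraries only, so nothing is read from these numbers. The run holds Zm00001eb080660, described above, between 2 members that were lower without being absent. Zm00001eb080640 had 36.5, 34.8 and 48.0 normalized counts in the mop1 libraries, against 151, 134 and 149 in the WT libraries. Zm00001eb080670 had 257, 200 and 197 in the mop1 libraries, against 423, 578 and 404 in the WT libraries.

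The other members of the run were Zm00001eb080610 and Zm00001eb080620, which differed less evenly. Zm00001eb080610 had 134, 135 and 83.6 normalized counts in the mop1 libraries, against 182, 230 and 159 in the WT libraries. Zm00001eb080620, among the 4 members with the highest counts, had 12875.7, 15895 and 2980.2 in the mop1 libraries, against 21005, 27717 and 22536 in the WT libraries. Its log2 fold change of -1.48 was -0.72 without mop1 replicate 3, the library with the lowest count of this gene.

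**Figure D3:**
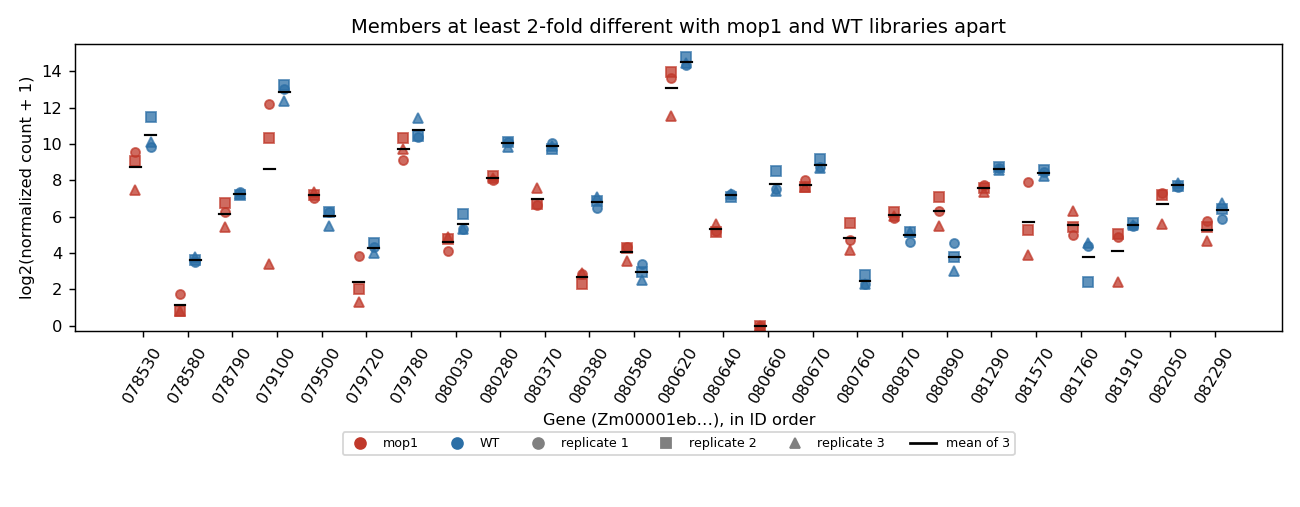
log2(normalized count + 1) in each library (symbols by replicate, bars for means of 3) for the 25 members with groups apart and a fold of at least 2, in ID order, mop1 in red and WT in blue. In 19 genes mop1 lies below WT, and in 6 above. Zm00001eb080660 is at 0 in every mop1 library.

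Members at least 2-fold higher in mop1 with groups apart were fewer, at 6, and mostly had low counts. Only 1 of these had a mean of at least 50. Of the 26 members higher with groups apart at any fold, 19 had such a mean. Zm00001eb080890 had 77.6, 135 and 43.6 normalized counts in the mop1 libraries, against 22.2, 12.9 and 7.17 in the WT libraries. Zm00001eb080760 had 25.6, 49.5 and 16.7 in the mop1 libraries, against 3.96, 6 and 3.98 in the WT libraries. Both lie in bin 5, and each had a log2 fold change above 2, at 2.50 (standard error 0.57) for Zm00001eb080890 and 2.37 (standard error 0.54) for Zm00001eb080760. Neither passed the limma test in the 6 libraries, with an adjusted p of 0.37 for both.

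Further members of bin 5 were higher by about 2-fold. Zm00001eb080870 had 60.6, 75.8 and 64.0 normalized counts in the mop1 libraries, against 23.8, 35.1 and 35.0 in the WT libraries, and Zm00001eb080580 had 19.4, 18.6 and 10.9 against 9.52, 6.86 and 4.78. Outside bin 5, Zm00001eb079500 had 130, 145 and 161 normalized counts in the mop1 libraries, against 75.3, 76.3 and 44.6 in the WT libraries. Zm00001eb081760 had 30.3, 41.8 and 77.8 in the mop1 libraries, against 19.8, 4.29 and 22.3 in the WT libraries, with WT replicate 2 well below the other WT libraries. Zm00001eb079970 had a mean of 772 ± 165 in mop1 and 423 ± 138 in WT, and Zm00001eb081420 one of 21.5 ± 2.14 in mop1 and 11.7 ± 5.43 in WT (SD, n = 3 each). Groups did not overlap at any of these 6 genes, and none passed limma's adjusted threshold.

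A few of these members entered the tested set through a single genotype, so their groups could not have overlapped. Those reaching 10 normalized counts in all 3 libraries of one genotype and in none of the other numbered 5: Zm00001eb078580, Zm00001eb080380 and Zm00001eb080660 in WT, and Zm00001eb080580 and Zm00001eb080760 in mop1. Zm00001eb078580 had 2.33, 0.773 and 0.727 normalized counts in the mop1 libraries, against 10.3, 11.1 and 12.7 in the WT libraries. Without these genes, 67 of 215 members were apart (background 17.3%), and 20 were also at least 2-fold different (background 3.6%), each background taken without such genes.

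Nearer the start of the interval, a stretch of abundant members was low in mop1 replicate 3 and partly in mop1 replicate 2. Zm00001eb079050 had 2010.1, 81.2 and 0 normalized counts in mop1 replicates 1 to 3, against 2237, 2760.1 and 1287 in WT replicates 1 to 3. Zm00001eb079040 had 2334, 481 and 5.82 in the mop1 libraries, against 2611.5, 3299 and 1543 in the WT libraries. Zm00001eb079060 had 12398, 2436 and 72.0 in the mop1 libraries, against 15050.3, 16558 and 9584 in the WT libraries. In each gene mop1 replicate 1 lay within the WT range, replicate 2 below it, and replicate 3 lower again.

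The mop1 libraries stood in the same order in Zm00001eb079100, with 4643, 1299.9 and 9.45 normalized counts in the mop1 libraries, against 8403, 9572 and 5322 in the WT libraries, although there mop1 replicate 1 was also below the WT range. They did so in Zm00001eb079030 too, at 2370.3, 562 and 29.1 in the mop1 libraries, against 2956, 3081 and 1485.5 in the WT libraries. Zm00001eb079030 was picked out after its values were seen. Among WT libraries, replicate 3 was the lowest in all 5 of these genes. A member between them, Zm00001eb079080, had its mop1 libraries in the same order with a far smaller drop, at 307, 199 and 193 in the mop1 libraries, against 399, 482 and 359 in the WT libraries. The order was not confined to this stretch. Zm00001eb078920, before it, had 2396, 247 and 19.6 in the mop1 libraries, against 3301, 3922 and 1785 in the WT libraries. Far later, Zm00001eb081770 differed from the WT mean by -0.38, -2.36 and -4.56 on the log2 scale in mop1 replicates 1 to 3. Both were picked after their values were seen.

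**Figure D4:**
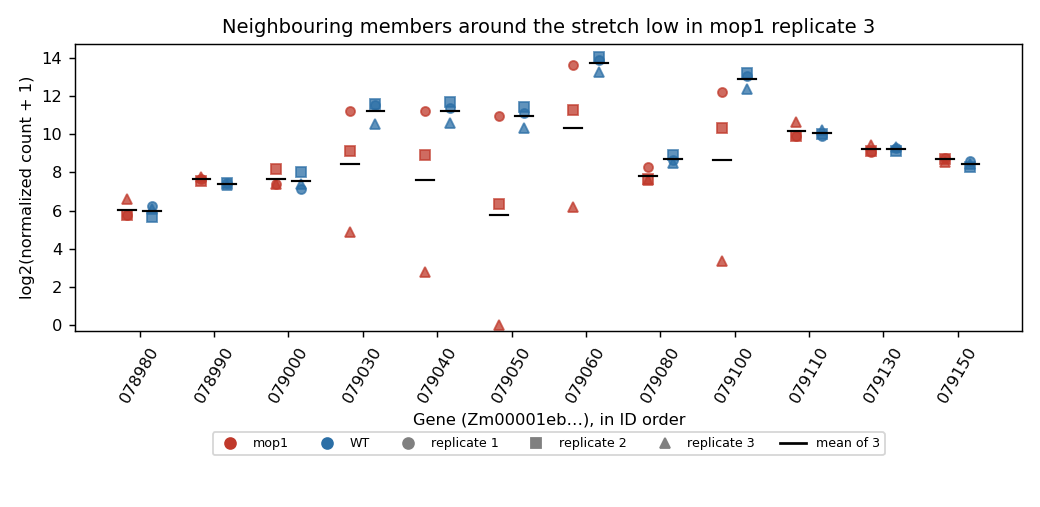
log2(normalized count + 1) in each library (symbols by replicate, bars for means of 3) for 12 consecutive members from Zm00001eb078980 to Zm00001eb079150, mop1 in red and WT in blue. In 5 genes mop1 replicate 3 (red triangle) lies far below the other libraries, down to 0 reads in Zm00001eb079050, while the members at either end differ little.

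The fitted changes of that stretch depend on mop1 replicate 3. The log2 fold change was -5.18 for Zm00001eb079050, -3.59 for Zm00001eb079040, -3.36 for Zm00001eb079060 and -4.24 for Zm00001eb079100. Without that library the same genes gave -2.30, -1.16, -1.28 and -1.62. Their standard errors in the 6 libraries were 1.73 to 2.51, and none passed the limma test. By contrast, Zm00001eb080280, Zm00001eb080370, Zm00001eb080380 and Zm00001eb080640 gave -1.89, -3.19, -4.24 and -1.99 without mop1 replicate 3, each within 0.3 of the value in all 6 libraries. Zm00001eb080640 was picked after its values were seen. Not all members of bins 4 and 5 were as steady, since Zm00001eb080620 went from -1.48 to -0.72 without that library.

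Over all members, mop1 replicate 3 was below each other library by more than 4-fold at 14 (6.36%, background 2.33%), of which 4 were in bins 4 and 5. The same was true of mop1 replicate 1 at 0 members (background 0.0605%), of mop1 replicate 2 at 0 (background 0.0734%), and of WT replicates 1, 2 and 3 at 0, 1 and 0 (background 0.013%, 0.242% and 0.0907%). Among the 25 members that were apart and at least 2-fold different, 19 met both conditions without mop1 replicate 3, 13 of the 19 lower ones and all 6 higher ones. The 6 that did not were lower by 2-fold or more only with that library included, for example Zm00001eb081910, at 27.9, 32.5 and 4.36 normalized counts in the mop1 libraries, against 43.6, 48.9 and 45.4 in the WT libraries. With that library left out, 30 of the 220 members were apart and at least 2-fold different (background 8.84%), 16 lower (background 3.31%) and 14 higher (background 5.53%).

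Each mop1 library was also set against the 3 WT libraries by itself. At least 2-fold below every WT library were 12 members in mop1 replicate 1 (5.45%, background 1.58%), 22 in replicate 2 (10%, background 3.67%) and 39 in replicate 3 (17.7%, background 7.68%). Above every WT library by 2-fold were 6, 8 and 4 members, or 2.73%, 3.64% and 1.82%, with a background of 3.32%, 3.91% and 1.9%. At 7 members both mop1 replicates 1 and 2 were at least 2-fold below every WT library, and replicate 3 was too at 6 of these. Over all tested genes the corresponding numbers were 178 and 75. On the upper side the numbers were 4 and 1 in the interval and 515 and 68 over all tested genes.

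**Figure D5:**
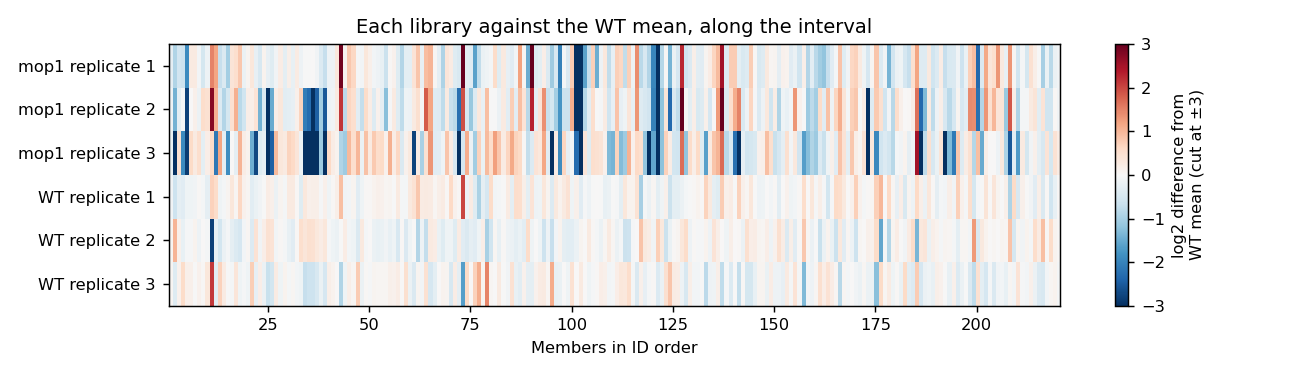
Difference of each library from the mean of the WT libraries, in log2(normalized count + 1), for the 220 members in ID order, with mop1 libraries in the upper rows and WT libraries in the lower rows. Blue is lower and red higher, with the scale cut at 3 in either direction. Blue bands near members 101, 102 and 121 run through all 3 mop1 rows, and the band over most of members 34 to 39 is darkest in mop1 replicate 3.

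The WT libraries were compared among themselves too. At least 2-fold below both other WT libraries were 1 member in WT replicate 1 (0.455%, background 0.79%), 4 in WT replicate 2 (1.82%, background 2.86%) and 4 in WT replicate 3 (1.82%, background 2.75%). The median SD of log2(normalized count + 1) within the WT libraries was 0.26 over the members and 0.23 over all other tested genes. Within the mop1 libraries it was 0.42 over the members and 0.36 over all other tested genes. In bins 4 and 5 the medians were 0.43 within mop1 and 0.26 within WT, and in the other bins 0.42 and 0.25. The scatter within a genotype was therefore about as wide in the middle of the interval as in the rest of it.

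Scatter between mop1 libraries also marked Zm00001eb081570 and Zm00001eb079720. Zm00001eb081570 had 238, 37.1 and 13.8 normalized counts in the mop1 libraries, against 347, 378 and 302 in the WT libraries. Zm00001eb079720 had 13.2, 3.09 and 1.45 in the mop1 libraries, against 19.0, 22.3 and 15.1 in the WT libraries. In both, mop1 replicate 1 lay close under the WT range and the other mop1 libraries far below it.

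The member with the highest mean, Zm00001eb082140, had 18706, 13813 and 8906 normalized counts in the mop1 libraries, against 25104, 31173 and 20659 in the WT libraries. Its groups were apart, and its log2 fold change of -0.94 had a standard error of 0.33. Zm00001eb081270, also among the highest, had 4803.5, 7941.5 and 4848 in the mop1 libraries, against 7412, 7342 and 6898 in the WT libraries, so that its groups overlapped. Among the 48 members with a mean of at least 1000, groups were apart at 15 (background 20.4% of all tested genes at that level).

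The steadiest members, by the range over all 6 libraries, included Zm00001eb080810 and Zm00001eb079930. Zm00001eb080810 had 383, 389 and 382 normalized counts in the mop1 libraries, against 351, 349.7 and 321 in the WT libraries. Zm00001eb079930 had 524, 523 and 511 in the mop1 libraries, against 424, 442 and 426 in the WT libraries. These genes had groups apart at log2 fold changes of 0.17 and 0.27, with 95% intervals of -0.17 to 0.52 and -0.05 to 0.58. Groups can thus be apart where the difference is far below 2-fold.

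At the genes next to the limits of the interval the change was small on either side. The first member, Zm00001eb078520, averaged 1150.1 ± 52.1 normalized counts in mop1 and 1321 ± 86.0 in WT, and the last, Zm00001eb082500, 1422 ± 191 in mop1 and 1406 ± 58.4 in WT (SD, n = 3 each). The tested gene just before the interval, Zm00001eb078490, averaged 57.3 ± 15.6 in mop1 and 75.9 ± 31.2 in WT. The one just after it, Zm00001eb082540, averaged 122 ± 21.0 in mop1 and 98.0 ± 10.8 in WT. Their log2 fold changes ran from -0.34 to 0.30. One gene further on, the change was not always small. It was -1.77 at the second member, Zm00001eb078530, and 1.29 at the second tested gene after the interval, Zm00001eb082550, both with groups apart. At the same step on the other sides, Zm00001eb078480 gave -0.09 and Zm00001eb082470 gave 0.10.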

How the data were processed

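The deposited table holds signal per gene, called normalized counts in the labels, for 39756 gene IDs in 1 column per library. Tools named per the submitters' processing notes are Trimmomatic 0.39, HISAT2, SAMtools, HTSeq and DESeq2. What each did, and the build, annotation and strandedness, is not given in the sources used here. In such counts, reads of near-identical copies or overlapping genes may have been split or dropped. Every value was a whole multiple of its column's smallest (100% within 0.01 of a read), which gave the recovered reads. None of the IDs matched the 49888 genes of the reference table (0 matched), so no names, positions or sequences are used.

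limma 3.58.1 (R 4.3.3) was fitted to log2(value + 1) of all 23150 tested genes, with trended, robust empirical Bayes and Benjamini-Hochberg adjustment, two-sided. Folds on this scale understate low genes. edgeR 4.0.16 and DESeq2 1.42.0 were run on recovered reads. The main limma fit and the edgeR and DESeq2 fits were tested on simulated reads, and the other settings were not. Deviations from the genotype's mean correlated across genes between libraries with the same number, at 0.15, 0.25 and 0.49, each above 0.1. The replicate number was therefore used as a block in an alternative. Libraries with different numbers were not compared in this way, and this pairing comes from the data alone. Limits from reads cover counting error only.

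Members and lists were chosen with earlier results of these data known. Genes named are those past the threshold, the 8 highest and 8 lowest folds among members with groups apart, those detected in 1 genotype, the 4 highest means, the 3 steadiest with a mean of at least 100, the 4 with the widest gap from 1 library to the other 5, and those at the limits; others were picked after their values were seen.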

Additional observations from a re-analysis of the deposited data

How the results depend on the processing

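The count of members past the adjusted threshold, 2 by limma, was 4 with pseudocount 5, with no filter, with TMM scaling, with library weights and at an adjusted p of 0.1. It was 1 with the replicate block, 0 at a mean of at least 50, 0 by edgeR and 16 by DESeq2 (7 higher, 9 lower). At a mean of at least 50, 38 members and 2062 of all 19457 such genes had an unadjusted limma p under 0.05. The count of members past the threshold ranged from 0 to 6 when 1 library was left out. Over all tested genes, limma passed 8 with pseudocount 5, 10 with no filter and 8 with TMM scaling. It passed 18 with library weights, 11 at an adjusted p of 0.1 and 1 at a mean of at least 50. The count of members at least 2-fold different, 40, was 25 at a mean of at least 50 and 14 at 4-fold, with 37 to 45 when 1 library was left out. Groups were apart at 72 members, and at 82 to 114 when 1 library was left out, the most without mop1 replicate 3. Leaving out a library sets groups apart more often by construction, at 40.4% of all tested genes without mop1 replicate 3. Both conditions together, 25 members, gave 16 at a mean of at least 50 and 26 to 36 without 1 library. This count was added after seeing the data. Without mop1 replicate 3 it was 30, where 8.84% of all tested genes met both conditions. For the other settings the counts of 2-fold and of groups apart are given without shares over all tested genes, so nothing is read from them. The median log2 fold change of the members, -0.09, was -0.049 with no filter, -0.12 at a mean of at least 50, -0.043 after quantile normalization, -0.032 by edgeR, -0.036 by DESeq2 and -0.069 in an interval widened by 500 ID numbers at each end. It ranged from -0.184 to -0.017 without 1 library. The median size, 0.37, was 0.44 with no filter, 0.34 at a mean of at least 50, 0.46 in an interval narrowed by 500 ID numbers and 0.35 in the widened one, and 0.37 to 0.44 without 1 library. The count of members with mop1 replicate 3 alone more than 4-fold lowest, 14, was 9 after quantile normalization. The highest share of groups apart in a bin, 50%, was 39.3% in bins of 1000 ID numbers, 45.2% without genes passing the filter in 1 genotype only (added after seeing the data) and 52.9% to 70.0% without 1 library. Some of these settings use fewer genes or libraries, and no other cause was tested. Of the 26 members named by the fixed rules, the last one in the interval, Zm00001eb082500, changed the sign of its fold change in 3 of 18 alternatives, and the other 25 in none. The block changed the call of Zm00001eb080280 and of no other named member. Low genes are estimated less exactly, and 41 members had a mean under 50.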
